A study of Homo sapiens with 12 samples.

Results

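The change examined here is the joint one: EndoC-βH1 cells that received siRNAs against TUNAR and then the GSK3 inhibitor 1-AKP, set against cells that received a negative control siRNA and then the solvent DMSO. These are 6 of the 12 libraries, 3 in each group, taken by their titles. The other 6 libraries hold the single treatments: TUNAR siRNAs followed by DMSO, and the negative siRNA followed by 1-AKP, 3 libraries each. They are used for the spread between replicates and to ask whether the joint change equals the sum of the single changes. EndoC-βH1 cells are a long-established human line derived from fetal pancreas, and they secrete insulin. All cells were transfected with a lipid reagent, so the control cells carry an siRNA too, and 2 days later received 1-AKP at 5 µM or DMSO for 24 hours. Replicates 1 and 2 of each group were from passage 74 and replicate 3 from passage 75. The TUNAR siRNAs are pre-designed reagents whose sequences are not given in the sources used here. Replicate 3 differs from the others in passage, and the labels do not say that replicates 1 and 2 were separate cultures. The p-values here therefore reflect library-to-library spread in 1 cell line, part of which may be technical.

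TUNAR is a long noncoding RNA, known from neural development and present in beta cells. GSK3 is a kinase that is active in resting cells and is held back by insulin and Wnt signals. It marks beta-catenin for destruction, restrains glycogen synthase, and acts beside the AKT pathway, which keeps the FOXO transcription factors out of the nucleus. FRAT1 and FRAT2 are small proteins that bind GSK3 and compete with its scaffold axin. In beta cells, identity rests on transcription factors such as PDX1, NKX6-1 and NKX2-2, and insulin is folded in a large endoplasmic reticulum that depends on chaperones.

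Levels are given as CPM, counts scaled to a common library total with TMM normalisation. Changes are given on the log2 scale with their standard error (SE), tested by quasi-likelihood in edgeR, and a gene was called at a Benjamini-Hochberg adjusted p under 0.05 over the 15990 genes that passed a filter on low counts. Library totals ran from 15653786 to 15986834 expected counts. Replicate 1 stood apart from replicates 2 and 3 in every group: on the first principal component, which held 23.7% of the variance, it had the lowest score of its group each time. Counts without it are given beside the main count and many of the gene lists. The beta-cell markers INS, IAPP, PDX1, NKX6-1, CHGA, PCSK1 and SLC30A8 all passed the filter. Of the markers of other islet cells, 7 were tested and 1 was called, GC, which averaged 195 CPM in the combined treatment and 226 CPM in controls (log2 change -0.21, SE 0.053, edgeR adjusted p = 0.03). That call was lost without replicate 2 or 3 of the controls or replicate 1 or 3 of the combined treatment, with a highest adjusted p of 0.137. The 7 markers together summed to between 1446 and 1779 CPM in the combined treatment and between 1614 and 1980 CPM in controls. GCG, the glucagon gene of alpha cells, reached 0.442 CPM at most and did not pass the filter, and PPY, PRSS1, PNLIP, LUM, CD3E and HBB were not analysed here. Of the duct and acinar (4 tested), fibroblast (2) and endothelial and blood (5) markers none was called. Those lists summed to 77.2 to 95.4, 2.6 to 5.73 and 51.8 to 59.5 CPM in the combined treatment, and to 73.3 to 89.7, 4.07 to 6.93 and 49.7 to 70.8 CPM in controls. In bulk RNA, fewer cells of a type and less RNA per cell cannot be told apart.

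TUNAR, the target of the siRNAs, stood below the controls in the combined treatment without passing the test across genes. It measured at 6.95, 10.5 and 13.6 CPM with TUNAR siRNAs and 1-AKP, against 14.4, 19.9 and 17.7 CPM with negative siRNA and DMSO. The groups did not overlap, and the combined treatment held 59.6% of the control level. The joint log2 change was -0.75 (SE 0.25, 95% interval -1.3 to -0.2), and it did not pass the threshold (edgeR adjusted p = 0.103). An exact two-sided permutation test gave p = 0.1, the smallest p that 3 libraries against 3 allow. The single changes went opposite ways: the siRNAs alone averaged 6.37 ± 2.24 CPM and 1-AKP alone 29.9 ± 1.69 CPM, against 17.3 ± 2.76 CPM in controls (SD, n = 3 each). On the log2 scale these are -1.44 and 0.79, whose sum of -0.66 lies close to the joint value. The departure from the sum was -0.09 with a 95% interval of -0.89 to 0.71, which reaches about the size of the joint change on either side. If fold changes multiply, 11 CPM would stand in the combined treatment, and if CPM differences add, 18.9 CPM, beside the 10.3 CPM measured. The joint change passed the threshold without replicate 1 of the TUNAR siRNAs with DMSO (-0.75, edgeR adjusted p = 0.0433) and without replicate 1 of all groups (-0.64, 0.000364), and did not without any other single library. The library preparation has no stated strand marking, so reads from transcripts on the opposite strand of the locus cannot be separated.

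The joint change reached 1210 genes, or 7.57% of the 15990 tested. Of these 579 (3.62%) were higher and 631 (3.95%) were lower with TUNAR siRNAs and 1-AKP than in controls. Most changes were small. The median size was 0.32 on the log2 scale, and 57 genes, 20 higher and 37 lower, passed 1 on the log2 scale, a doubling or its inverse. In all 1210 the 3 combined libraries lay outside the range of the 3 control libraries, where such separation was seen in 12.4% (higher) and 12.8% (lower) of all genes tested. Just inside the threshold stood B4GALT6 (log2 change -0.22) and ITPRIPL2 (-0.41), and just outside it CTDSPL (-0.23, adjusted p = 0.0502) and RAB29 (0.28, 0.0503). With library size alone as the scaling, 1181 genes were called, 428 higher and 753 lower, so the balance of directions depends on the scaling. The count was 638, 554 and 701 without replicates 1, 2 and 3 of the controls, and 727 and 566 without replicates 2 and 3 of the combined treatment. Leaving out replicate 1, 2 or 3 of all 4 groups gave 2626, 27 and 86 calls. The 6 genes COQ8A, PTGS2, ABTB1, ULK1, FBXO32 and FRAT2 stayed called under each of the 25 alternatives tried that had no replicate block.

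**Figure D1:**
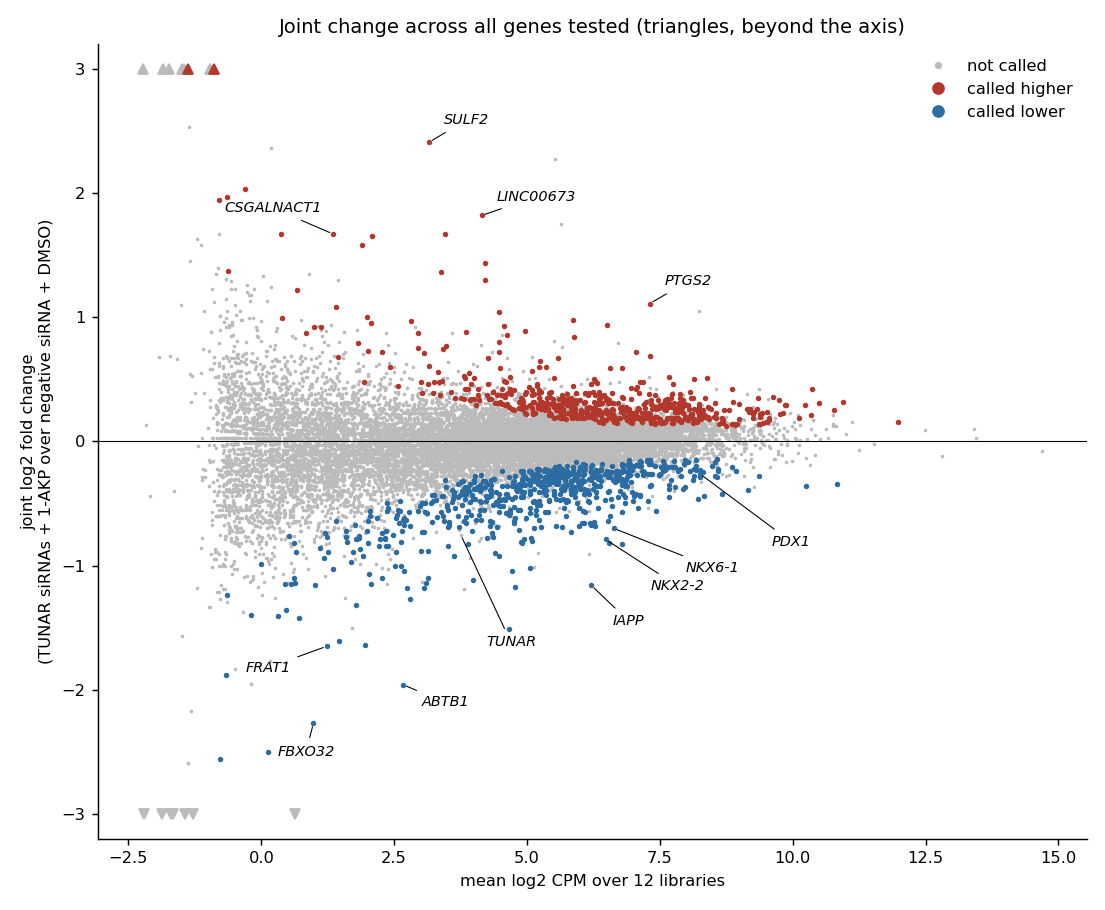
Joint log2 fold change (vertical axis, TUNAR siRNAs with 1-AKP over negative siRNA with DMSO) against mean log2 CPM over 12 libraries (horizontal axis), 1 point per gene tested, coloured where called. Of the 15990 genes, 15 lie beyond 3 on the vertical axis and are drawn as triangles at its limits, and all of these have a mean log2 CPM of 0.64 or less. The called changes include SULF2 among the highest and ABTB1, FRAT1 and FBXO32 among the lowest, and TUNAR lies in the uncalled points.

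The largest called decrease among genes of at least 1 mean log2 CPM was in ABTB1, an ankyrin-repeat protein with BTB domains. It measured 3.86, 3.17 and 2.54 CPM in the combined treatment and 14.5, 12.1 and 10.6 CPM in controls (log2 change -1.96, SE 0.174, edgeR adjusted p = 8.2e-05). FRAT1 followed, at 1.35, 1.58 and 1.02 CPM in the combined treatment and 4.37, 3.42 and 4.69 CPM in controls. All 3 combined libraries lay below the lowest control, and the change was -1.65 (SE 0.199, edgeR adjusted p = 0.000457). Its neighbour and paralog FRAT2 measured 5.53, 6.02 and 5.58 CPM in the combined treatment and 11.4, 13.1 and 13.3 CPM in controls, a change of -1.14 (SE 0.118, edgeR adjusted p = 0.0002). Reads from stretches that FRAT1 and FRAT2 share could have been split between them by the authors' counting, so the size of each change is less certain than its direction. With the siRNAs alone the changes of FRAT1 and FRAT2 were -0.05 and -0.02, and with 1-AKP alone -1.92 and -1.13.

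COQ8A, an atypical kinase needed for coenzyme Q synthesis, had the lowest adjusted p of all genes tested. It measured 17.7, 19.4 and 17.3 CPM in the combined treatment and 41.5, 43.8 and 37.5 CPM in controls, a change of -1.17 (SE 0.073, edgeR adjusted p = 1.36e-05). FOXO4, a forkhead transcription factor, measured 2.25, 2.03 and 2.47 CPM in the combined treatment and 5.68, 5.42 and 5.76 CPM in controls (-1.32, SE 0.146, edgeR adjusted p = 0.000306). In both genes the spread within each group was small beside the distance between groups. The promoters of FRAT1, FRAT2, FOXO4 and COQ8A are shown because all 4 hold the letters TGTTTAC on one strand or the other. These letters are the ones that FOXO factors, and other forkhead factors, are known to bind. The promoters come from RefSeq on build GRCh38.p14 and run from 250 bases before to 50 bases after the gene start, 5′ to 3′ on the gene's strand. Capitals mark the match, written GTAAACA where it lies on the other strand.
FRAT1, chr10:97319021-97319320, plus strand: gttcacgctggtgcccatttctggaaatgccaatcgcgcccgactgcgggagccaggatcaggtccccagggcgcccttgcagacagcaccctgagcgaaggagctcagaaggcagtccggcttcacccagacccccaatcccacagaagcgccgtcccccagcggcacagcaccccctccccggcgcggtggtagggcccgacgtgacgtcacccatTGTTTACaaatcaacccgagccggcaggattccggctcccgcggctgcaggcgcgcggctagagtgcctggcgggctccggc
FRAT2, chr10:97334680-97334979, minus strand: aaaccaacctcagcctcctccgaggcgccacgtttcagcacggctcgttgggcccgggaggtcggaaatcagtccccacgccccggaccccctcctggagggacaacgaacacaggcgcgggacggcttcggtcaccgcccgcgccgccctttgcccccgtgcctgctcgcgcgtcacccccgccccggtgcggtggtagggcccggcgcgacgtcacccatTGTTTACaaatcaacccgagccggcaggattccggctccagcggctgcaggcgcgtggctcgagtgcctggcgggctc
FOXO4, chrX:71095601-71095900, plus strand: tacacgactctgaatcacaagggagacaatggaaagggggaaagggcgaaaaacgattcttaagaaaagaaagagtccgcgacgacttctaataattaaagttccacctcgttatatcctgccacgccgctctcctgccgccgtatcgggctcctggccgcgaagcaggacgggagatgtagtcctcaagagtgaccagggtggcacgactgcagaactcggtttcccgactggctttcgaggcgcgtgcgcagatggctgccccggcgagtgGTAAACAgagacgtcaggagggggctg
COQ8A, chr1:226940044-226940343, plus strand: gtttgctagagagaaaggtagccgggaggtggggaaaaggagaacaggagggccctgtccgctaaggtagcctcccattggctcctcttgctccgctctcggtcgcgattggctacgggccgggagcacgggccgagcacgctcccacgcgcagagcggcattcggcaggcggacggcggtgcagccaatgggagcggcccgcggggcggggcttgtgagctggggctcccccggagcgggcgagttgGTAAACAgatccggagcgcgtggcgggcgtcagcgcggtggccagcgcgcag
The FRAT1 and FRAT2 matches begin 32 and 28 bases before the gene start, the COQ8A match begins 2 bases before it, and the FOXO4 match lies after it. Around the match the windows of the paralogs FRAT1 and FRAT2 are nearly identical, so their matches are not independent of each other. Of all 35116 promoters of this length in the table, 3.42% hold the letters on either strand. The letters were chosen after the changes were seen, and a match is a description of this window, not a binding site. The table held a promoter for 75 of the 96 named genes, and besides the 4 shown SSTR5, CCDC28A, PCGF5 and SULF2 held the letters. Of those 4, SULF2 was higher and the others lower in the combined treatment. It held a promoter for 7 of the 10 largest decreases and 12444 of the 15990 genes tested, under 80% of each, so no share is given for these groups. The letters CTTTGAA and CTTTGAT, a form of the site of the beta-catenin partners TCF and LEF, were found on either strand in 6.86% of all promoters, and among the named genes in IAPP and SLC3A2.

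Part of the FOXO factors and FOXO target genes were lower. Of 22 tested, none was higher and 9 were lower, 40.9% beside 7.57% over all genes, with a median joint change of -0.23 beside 0 over all genes. FBXO32, a ubiquitin ligase subunit induced by FOXO in wasting muscle, measured 0.708, 1.14 and 0.761 CPM in the combined treatment and 3.75, 4.3 and 4.63 CPM in controls (-2.27, SE 0.236, edgeR adjusted p = 0.0002). FOXO3 measured 50.4, 50.9 and 53.8 CPM in the combined treatment and 74.1, 74.1 and 70.9 CPM in controls (-0.5, SE 0.059, edgeR adjusted p = 0.000415). The insulin receptor INSR, itself a FOXO target in other tissues, measured 63.9, 62 and 61.2 CPM in the combined treatment and 87.1, 82.2 and 81 CPM in controls (-0.42, SE 0.047, edgeR adjusted p = 0.000316). In all 3 genes the groups were well apart. The other called members were FOXO4, RICTOR (-0.46), PINK1 (-0.57), BTG1 (-0.2), IRS2 (-0.33) and SESN1 (-0.23), while FOXO1 did not pass, at -0.09 (edgeR adjusted p = 0.537). Leaving out any 1 library gave between 6 and 10 calls, all lower. Without replicates 1, 2 and 3 of all groups there were 10, 1 and 6.

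Among the 33 autophagy and lysosome genes tested, 2 were higher and 5 lower (21.2%), with a median of 0. The lower ones act in autophagosome formation. ULK1, the initiating kinase, measured 68.4, 77.6 and 74.1 CPM in the combined treatment and 119, 109 and 115 CPM in controls (-0.64, SE 0.063, edgeR adjusted p = 0.000136). WIPI2, which recruits the conjugation machinery, changed by -0.55 (SE 0.079, edgeR adjusted p = 0.00163), and MAP1LC3A, ULK2 and ATG9A by -0.54, -0.36 and -0.3. The higher ones were lysosomal: LAMP1, a membrane protein, at 0.32, and ATP6V0D1, a proton pump subunit, at 0.27. Without replicate 3 of the combined treatment 3 were called lower, and without replicates 1, 2 and 3 of all groups 7, 1 and 2. Of 28 genes of insulin receptor and mTOR signalling, 2 were higher and 4 lower (21.4%, median -0.02). IGF1R, the IGF receptor, measured 107, 96.1 and 95.7 CPM in the combined treatment and 139, 136 and 134 CPM in controls (-0.45, SE 0.062, edgeR adjusted p = 0.00113). RPS6KB2, an S6 kinase, changed by 0.3. GRB10 (-0.62) and IGF2 (-0.36) were among the lower ones, and PIK3R1 (0.31) was the other higher one, and reads of IGF2 can be shared with the INS-IGF2 readthrough transcript. Without replicate 1 of the controls or replicate 3 of the combined treatment 2 were called lower.

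Among the Wnt genes, the share called was near that of all genes for the target genes. It was higher for the GSK3 complex and for the ligands and receptors. Of 16 Wnt and beta-catenin target genes tested 1 was called (6.25%, near the 7.57% of all genes), KREMEN1, a receptor for the Wnt antagonist Dickkopf. It measured 29.7, 25.8 and 24.5 CPM in the combined treatment and 35.7, 36.9 and 36.6 CPM in controls (-0.45, SE 0.077, edgeR adjusted p = 0.0047), and the groups did not overlap. AXIN2, the most widely used target, measured 8.69, 8.93 and 10 CPM in the combined treatment and 9.43, 9.27 and 11.3 CPM in controls. The groups overlapped, with a change of -0.12 and a 95% interval of -0.4 to 0.17. Of 23 genes of the GSK3, FRAT and beta-catenin complex 1 was higher and 3 were lower (17.4%): beside both FRAT genes CSNK1E, a casein kinase, at -0.22, and its relative CSNK1D at 0.15. The CSNK1D call was lost without replicate 2 or 3 of the controls or any 1 of the combined libraries (highest adjusted p = 0.104). The lower count was 2 on leaving out any of 10 of the 12 libraries. CTNNB1, which encodes beta-catenin, overlapped between groups at -0.17 (edgeR adjusted p = 0.198), as did GSK3B at 0.04 (0.814). GSK3A did not overlap and did not pass, at 0.1 (0.28). With a replicate block the 1-AKP change of CTNNB1 passed, at -0.17 with negative siRNA and -0.22 with TUNAR siRNAs (edgeR adjusted p = 1.38e-05 and 1.82e-07). That of GSK3B passed with neither (0.993 and 0.323), and that of GSK3A with negative siRNA only (0.12, edgeR adjusted p = 0.0399). Of 18 Wnt ligands and receptors none was higher and 3 were lower (16.7%). The ligand WNT4 measured 16.7, 21.3 and 18.5 CPM in the combined treatment and 25.8, 26.7 and 25.4 CPM in controls (-0.46, SE 0.084, edgeR adjusted p = 0.00648), and the receptors ROR2 and ROR1 changed by -0.28 and -0.42. Without replicate 2 or 3 of the combined treatment 1 of these 3 was called. The highest adjusted p of ROR2 was 0.103, without replicate 1 of the controls, and that of ROR1 0.177, without replicate 2 of the controls. The ROR2 call was lost on leaving out any of 3 of the 12 libraries and the ROR1 call any of 9. LEF1 was not analysed here. Of the Wnt antagonists 1 passed the filter, and it was not called. Of 22 genes of glycogen metabolism 2 were higher (9.09%), PYGB, a glycogen phosphorylase, at 0.22 and GYG1, which primes glycogen, at 0.38, and without replicate 3 of the controls, or replicate 2 or 3 of the combined treatment, neither was (highest adjusted p = 0.107 and 0.12).

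**Figure D2:**
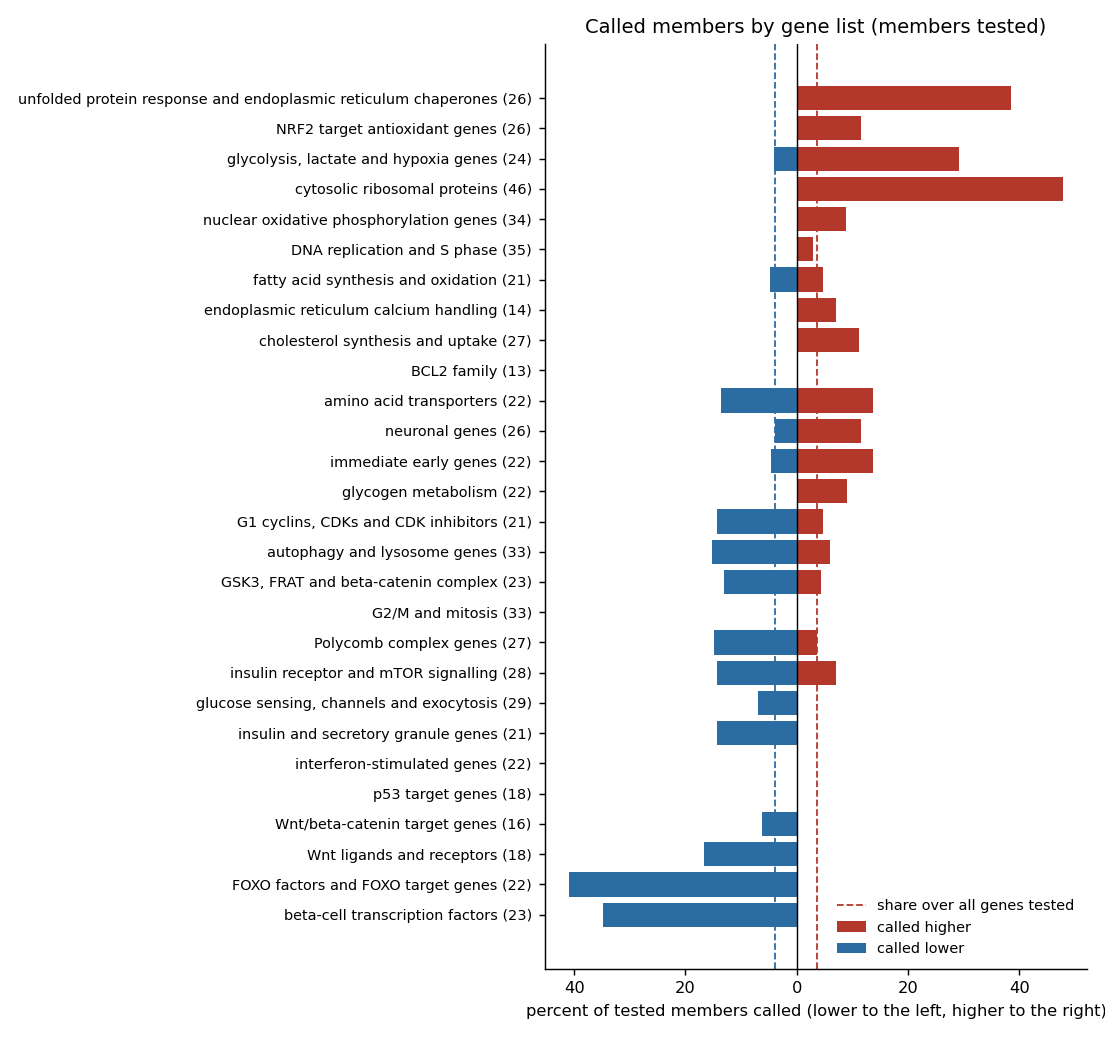
Share of tested members called in the joint change, by gene list, for lists with at least 10 tested members: higher to the right, lower to the left, with the number of tested members in brackets and lists sorted by median joint change. Dashed lines give the shares over all genes tested, 3.62% higher and 3.95% lower. The FOXO and beta-cell transcription factor lists hold lower calls only, and the chaperone and ribosomal protein lists higher calls only.

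The transcription factors that hold beta-cell identity were lower in part. Of 23 tested, none was higher and 8 were lower (34.8%), with a median of -0.25. NKX6-1 measured 69.7, 81.1 and 83.9 CPM in the combined treatment and 119, 130 and 131 CPM in controls (-0.7, SE 0.074, edgeR adjusted p = 0.000214). NKX2-2 measured 59.3, 69 and 73 CPM in the combined treatment and 105, 118 and 124 CPM in controls (-0.79, SE 0.095, edgeR adjusted p = 0.000523). In both factors the highest combined library lay well below the lowest control. PDX1, the factor that opens pancreatic development and drives insulin transcription, changed less, with 256, 293 and 284 CPM in the combined treatment and 322, 337 and 343 CPM in controls (-0.26, SE 0.055, edgeR adjusted p = 0.0122). That call was lost without replicate 2 of the controls, at an adjusted p of 0.0532. PAX6, a pan-endocrine factor, changed by -0.24 (SE 0.043, edgeR adjusted p = 0.00524), and MNX1, MLXIPL, SIX2 and GLIS3 by -0.38, -0.36, -0.65 and -0.25. MAFA and NEUROD1 did not pass. MAFA measured 37.1, 73.9 and 71.1 CPM in the combined treatment and 66.6, 94.1 and 108 CPM in controls, with replicate 1 lowest in both groups and a change of -0.56 (SE 0.311, edgeR adjusted p = 0.343). The list's count was 4 without replicate 2 and 5 without replicate 3 of the controls. Without replicates 1, 2 and 3 of all groups 13, 0 and 2 were lower, and 1 was higher without replicate 1. Of 8 factors of pancreatic progenitors none was called.

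The insulin gene did not pass the test. INS measured 9207, 11975 and 12851 CPM in the combined treatment and 9286, 10634 and 11928 CPM in controls, overlapping groups with a change of 0.1 (95% interval -0.23 to 0.42, edgeR adjusted p = 0.786). IAPP, the amyloid peptide stored and released with insulin, measured 60.9, 42.3 and 47.3 CPM in the combined treatment and 136, 94.6 and 106 CPM in controls. It changed by -1.16 (SE 0.217, edgeR adjusted p = 0.0113), with replicate 1 highest in both groups, and the call was lost without replicate 3 of the combined treatment (adjusted p = 0.0554). With a replicate block its 1-AKP change passed, at -0.81 with negative siRNA and -0.8 with TUNAR siRNAs (edgeR adjusted p = 2.91e-16 and 2.42e-15). In these comparisons the replicate 2 libraries deviated together only weakly, with correlations of 0.0871 and 0.0634. UCN3, a peptide of mature beta cells, measured 7.91, 9.76 and 8.82 CPM in the combined treatment and 12.9, 16.2 and 12.1 CPM in controls (-0.64, SE 0.136, edgeR adjusted p = 0.0145). This call was lost without replicate 2 of the controls or replicate 3 of the combined treatment, with a highest adjusted p of 0.0667. ERO1B, the oxidase of insulin folding, changed by -0.34 (SE 0.056, edgeR adjusted p = 0.00376). These 3 were the called members of the 21 insulin and secretory granule genes tested (14.3%, median -0.05). Without replicate 3 of the combined treatment 1 of the 3 was called, and without replicate 2 of the controls 2. Of 29 genes of glucose sensing and exocytosis 2 were lower (6.9%, median -0.02): GIPR, the receptor of the incretin GIP, at -0.57 (SE 0.089, edgeR adjusted p = 0.00281), and the potassium channel KCNH6 at -0.33, whose call was lost without replicate 1 or 2 of the controls or replicate 3 of the combined treatment (highest adjusted p = 0.0773).

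**Figure D3:**
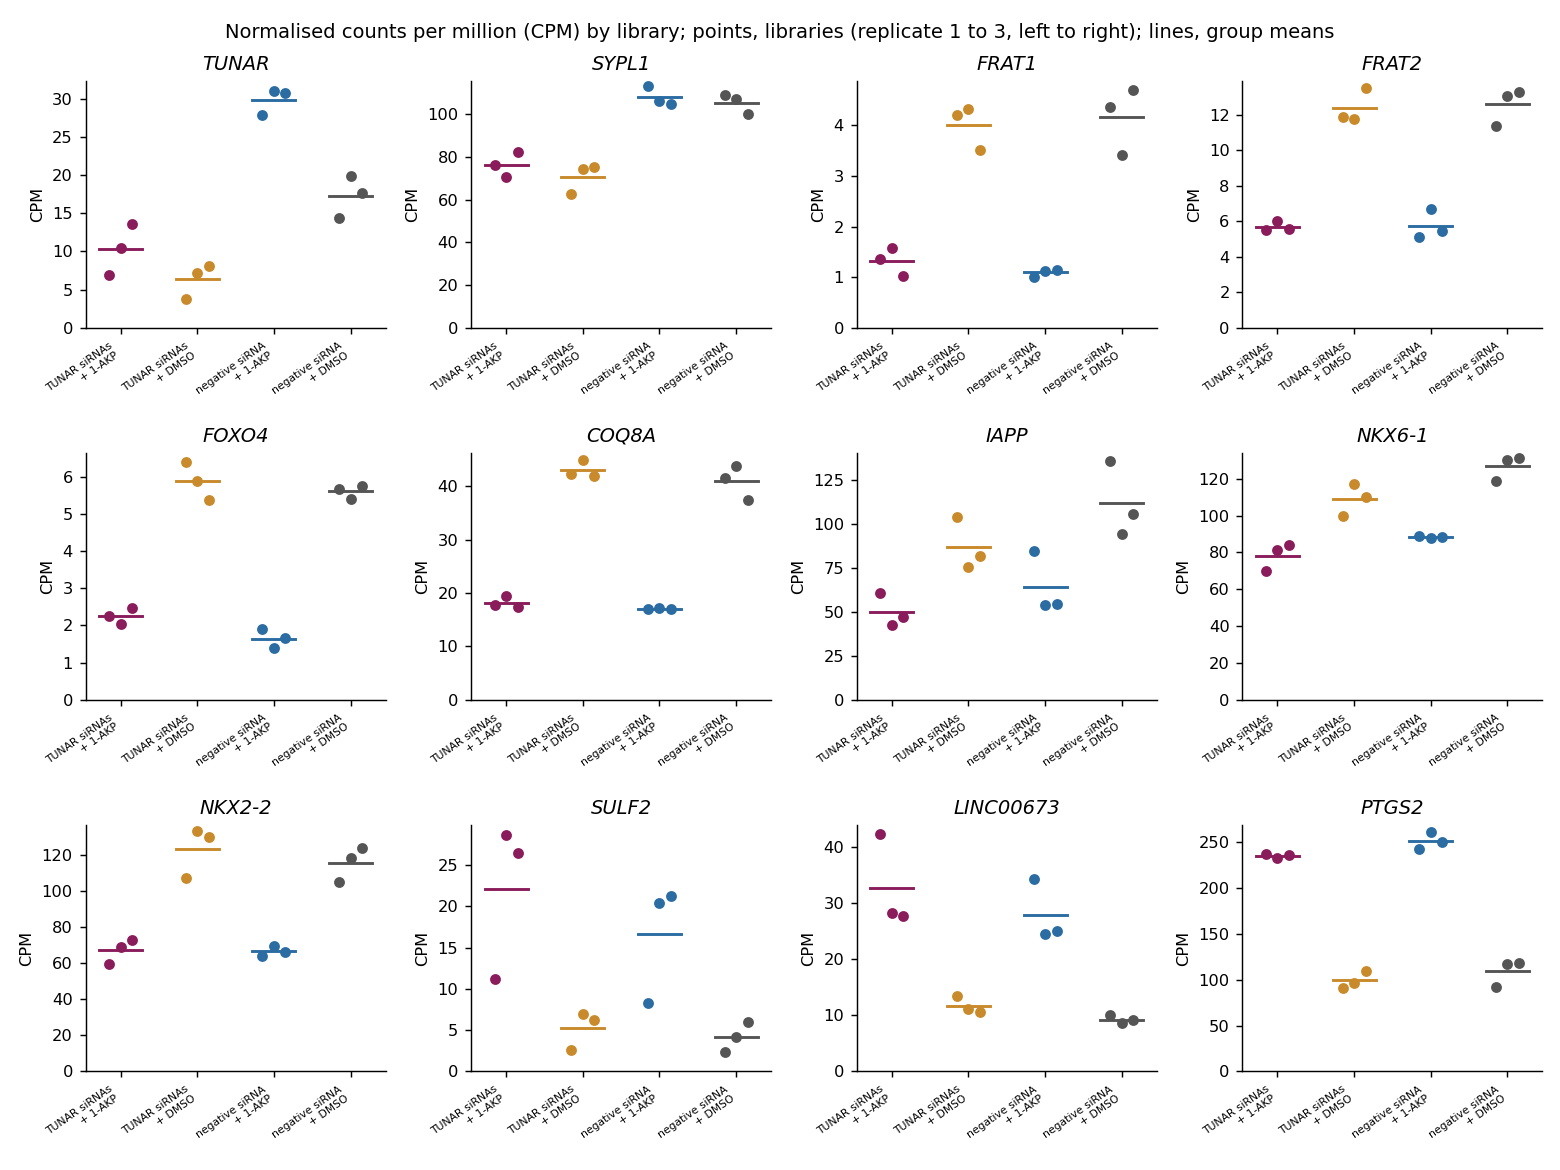
CPM of 12 genes in each library (points, replicates 1 to 3 from left to right) with the group mean (line), from left to right for the combined treatment, TUNAR siRNAs alone, 1-AKP alone and controls. FRAT1, FRAT2, COQ8A and NKX2-2 lie near 1-AKP alone in the combined treatment, SYPL1 lies near the siRNAs alone, and the means of IAPP and NKX6-1 lie below those of both single treatments.

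Part of the endoplasmic reticulum chaperones were higher. Of 26 unfolded protein response and chaperone genes tested 10 were higher and none lower (38.5%), with a median of 0.19, and the list summed to between 9587 and 10154 CPM in the combined treatment and between 8050 and 8487 CPM in controls. CANX, the calnexin that holds glycoproteins during folding, measured 1570, 1511 and 1524 CPM in the combined treatment and 1108, 1173 and 1152 CPM in controls (0.42, SE 0.039, edgeR adjusted p = 9.22e-05). HSPA5, the main chaperone BiP, measured 1105, 1024 and 1008 CPM in the combined treatment and 866, 874 and 820 CPM in controls (0.29, SE 0.05, edgeR adjusted p = 0.0045). MANF, a secreted stress protein, measured 170, 163 and 155 CPM in the combined treatment and 114, 124 and 111 CPM in controls (0.48, SE 0.062, edgeR adjusted p = 0.000843). The groups were apart in all 3. PDIA4, PDIA3, HYOU1, PDIA6, CRELD2, HSP90B1 and DNAJB11 changed by 0.25 to 0.35. The stress factors ATF4 (0.09, edgeR adjusted p = 0.208) and DDIT3 (0.17, 0.65) did not pass. Leaving out any 1 library left between 7 and 10 called, and leaving out replicates 1, 2 and 3 of all groups left 13, 0 and 3. Of 14 genes of endoplasmic reticulum calcium handling 1 was called, the calcium release channel ITPR3, at 266 ± 13.2 CPM in the combined treatment and 204 ± 3.76 CPM in controls (SD, n = 3 each; 0.38, SE 0.048, edgeR adjusted p = 0.000618).

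Cytosolic ribosomal proteins were higher in part, all with small changes. Of 46 tested 22 were higher and none lower (47.8%), and their median change was 0.16. RPL7A, of the large subunit, measured 795, 819 and 801 CPM in the combined treatment and 686, 692 and 672 CPM in controls (0.24, SE 0.034, edgeR adjusted p = 0.00169). RPS6, of the small subunit, measured 668, 645 and 666 CPM in the combined treatment and 559, 579 and 566 CPM in controls (0.22, SE 0.034, edgeR adjusted p = 0.00288). The summed level of the list ran from 20239 to 20689 CPM in the combined treatment and from 18369 to 18633 CPM in controls. Changes this small are sensitive to single libraries: the count was 10, 10 and 6 without replicates 1, 2 and 3 of the controls, and 8 and 9 without replicates 2 and 3 of the combined treatment. It was 13 with library size as the scaling, all of them higher, and 39, 0 and 0 without replicates 1, 2 and 3 of all groups. Ribosomal protein genes have many processed pseudogenes, so the reads of a member are less certain than those of other genes.

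Glycolysis and hypoxia genes gave 7 higher and 1 lower of 24 (33.3%, median 0.17). PGK1, which makes ATP from a glycolytic intermediate, measured 285, 274 and 276 CPM in the combined treatment and 239, 249 and 245 CPM in controls (0.19, SE 0.036, edgeR adjusted p = 0.00856). LDHA, which makes lactate, measured 261, 238 and 265 CPM in the combined treatment and 215, 211 and 201 CPM in controls (0.28, SE 0.066, edgeR adjusted p = 0.0229). For LDHA the single changes went opposite ways, at -0.25 with the siRNAs and 0.54 with 1-AKP. ENO2, PFKM, ALDOA, PGAM1 and LDHB changed by 0.2 to 0.28. The lower member was BNIP3L, a mitophagy receptor that is also a FOXO target, at 69.9, 55.6 and 60.5 CPM in the combined treatment and 103, 104 and 91.5 CPM in controls (-0.68, SE 0.083, edgeR adjusted p = 0.000484). The higher count was 4, 1 and 3 without replicates 1, 2 and 3 of the controls and 3 without replicate 2 or 3 of the combined treatment. Without replicates 1, 2 and 3 of all groups it was 12, 0 and 0. The ENO2 call was lost without replicate 2 of the controls (adjusted p = 0.0532). Of 34 nuclear genes of oxidative phosphorylation 3 were higher (8.82%, median 0.1), CYCS, COX5A and ATP5F1C, at 0.21, 0.19 and 0.16. All 3 calls were lost without replicate 1 of the controls or replicate 3 of the combined treatment, with highest adjusted p of 0.0526, 0.12 and 0.153, and ATP5F1C was lost without each of the 12 libraries. Of 26 NRF2 target genes 3 were higher (11.5%, median 0.17), among them NFE2L2, which encodes NRF2 itself, at 68.5 ± 7.84 CPM in the combined treatment and 50.3 ± 5.28 CPM in controls (SD, n = 3 each; 0.45, SE 0.091, edgeR adjusted p = 0.0116).

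The largest called increase among genes of at least 1 mean log2 CPM was in SULF2, an extracellular sulfatase that trims heparan sulfate. It measured 11.2, 28.6 and 26.5 CPM in the combined treatment and 2.31, 4.17 and 6.01 CPM in controls (2.41, SE 0.524, edgeR adjusted p = 0.023). Replicate 1 was lowest in both groups, and the call was lost without replicate 1 or 2 of the controls or replicate 2 or 3 of the combined treatment (highest adjusted p = 0.0896). With a replicate block the 1-AKP change of SULF2 passed, at 1.99 with negative siRNA and 2.07 with TUNAR siRNAs (edgeR adjusted p = 3.91e-16 and 1.13e-17). LINC00673, a long noncoding RNA, measured 42.3, 28.2 and 27.7 CPM in the combined treatment and 9.99, 8.65 and 9.08 CPM in controls (1.82, SE 0.19, edgeR adjusted p = 0.000306). LRAT, which esterifies retinol for storage, measured 7.79, 7.92 and 8.31 CPM in the combined treatment and 2.87, 2.43 and 2.32 CPM in controls (1.65, SE 0.205, edgeR adjusted p = 0.000576). Both were clear of the controls in every library. CSGALNACT1, which starts chondroitin sulfate chains, NRP1, a coreceptor for semaphorins and VEGF, and the transmembrane protein SECTM1 changed by 1.67, 1.58 and 1.67. SLC7A7, the light chain of a cationic amino acid transporter, measured 26.1, 34.3 and 28.4 CPM in the combined treatment and 9.87, 14.1 and 12.1 CPM in controls (1.3, SE 0.148, edgeR adjusted p = 0.000322). Its heavy-chain partner SLC3A2 was higher too, at 313, 355 and 337 CPM in the combined treatment and 225, 239 and 246 CPM in controls (0.5, SE 0.057, edgeR adjusted p = 0.000322). The 22 amino acid transporters tested gave 3 higher and 3 lower (27.3%), with SLC36A1 the other higher one at 0.49. The lower ones were SLC6A6, SLC38A3 and SLC38A2, at -0.16 to -0.26. All 3 lower calls were lost on leaving out any of 8 of the 12 libraries. Of the immediate early genes 3 were higher and 1 lower of 22 (18.2%). PTGS2, the inducible cyclooxygenase, measured 237, 233 and 236 CPM in the combined treatment and 92.4, 117 and 118 CPM in controls (1.11, SE 0.087, edgeR adjusted p = 5.71e-05), while FOS and EGR1 overlapped between groups. DUSP5 (0.29) and KLF10 (0.34) were the other higher ones, and PTGS2 was the 1 left without any 1 of the controls or of the combined libraries. NR4A2, an orphan nuclear receptor, was the lower one at -1.16 (edgeR adjusted p = 0.015), and lost its call without replicate 1 or 2 of the controls or replicate 2 or 3 of the combined treatment (highest adjusted p = 0.068). The DUSP5 call was lost on leaving out any of 9 of the 12 libraries, with a highest adjusted p of 0.137, without replicate 2 of the controls.

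Other genes among the 10 largest decreases were KLHL24, a ubiquitin ligase adaptor, at 18, 15.6 and 12.1 CPM in the combined treatment and 50.1, 43 and 36.9 CPM in controls (-1.51, SE 0.185, edgeR adjusted p = 0.000902), and BTN3A1, a butyrophilin sensed by gamma-delta T cells, at -1.61 (SE 0.216, edgeR adjusted p = 0.000989). CREBRF, a repressor of the stress factor CREB3, and CCDC28A both changed by -1.18, and LINC01370 by -1.27. TFAP2B, a developmental transcription factor, was among the 10 largest increases at 1.44 (edgeR adjusted p = 0.0152), and lost its call without replicate 1 or 2 of the controls or replicate 2 or 3 of the combined treatment (highest adjusted p = 0.0671). Among 27 Polycomb genes 1 was higher and 4 lower (18.5%, median -0.02). PCGF5, a subunit of the first Polycomb complex, measured 59.8, 59.6 and 64 CPM in the combined treatment and 89.1, 84 and 83 CPM in controls (-0.48, SE 0.054, edgeR adjusted p = 0.000316). JARID2 of the second complex changed by -0.59, CBX7 by -0.92, RNF2 by -0.29 and PHC1 by 0.2. Without replicate 1 or 2 of the controls, or replicate 2 or 3 of the combined treatment, 2 of the Polycomb genes were called lower, and CBX7 was not (highest adjusted p = 0.118). Of 33 G2/M genes none was called (0%, beside 7.57% over all genes). Their summed level ran from 3971 to 6184 CPM in the combined treatment and from 4018 to 6046 CPM in controls. With so wide a spread within groups, the lack of calls does not show that these genes were unchanged. Of 35 replication genes 1 was called (2.86%). That was FEN1, at 0.29, lost without replicate 2 of the controls or replicate 3 of the combined treatment (highest adjusted p = 0.0569). Of 21 G1 genes 1 was higher (CDK4, 0.29) and 3 lower (19%). CDKN2B, an inhibitor of CDK4, was one of these, at 26.3 ± 1.05 CPM in the combined treatment and 34.9 ± 1.28 CPM in controls (SD, n = 3 each; -0.41, SE 0.067, edgeR adjusted p = 0.00363), and RBL2 and E2F2 the others, at -0.31 and -0.24. The RBL2 call was lost on leaving out any of 4 of the 12 libraries (highest adjusted p = 0.105), and the E2F2 call any of 8 (0.123). Of the G1 calls, 1 lower one was left without replicate 1 or 2 of the controls or replicate 2 or 3 of the combined treatment. The p53 target genes (18 tested), interferon-stimulated genes (22) and BCL2 family (13) had no call, and no more than 1 in any of these lists without a single library. Of 26 neuronal genes 3 were higher and 1 lower (15.4%), TUBB2B, SYP and NRCAM at 0.35, 0.22 and 0.27 and ELAVL4 at -0.47, whose call was lost without 5 of the 12 libraries. Cholesterol genes gave 3 higher of 27 (11.1%), led by DHCR7 at 0.31, and 1 was left without any 1 of the 3 controls or replicate 3 of the combined treatment. Fatty acid genes gave SCD higher at 0.16 and HADHB lower at -0.29 among 21 (9.52%), both lost without replicate 1 or 2 of the controls or replicate 3 of the combined treatment (highest adjusted p = 0.0647 and 0.0836). Of 9 genes near TUNAR on its chromosome SYNE3 (-0.72) and ATG2B (-0.29) were lower (22.2%). Without replicate 1 of all groups several of these lists and those above held more calls: the NRF2 list 11 higher and 3 lower, cholesterol 6 and 6, glucose sensing 4 and 5, oxidative phosphorylation 8 and 1, amino acid transporters 6 and 5, insulin receptor and mTOR 5 and 6, neuronal genes 6 and 2, Wnt ligands and receptors 1 and 5, insulin and granule genes 1 and 5, glycogen 4 and 0, immediate early genes 3 and 3, p53 targets 2 and 2, and interferon-stimulated genes 1 and 2. Without replicate 2 of all groups, and likewise without replicate 3, nearly all of these calls were gone. The amino acid transporters and the immediate early genes then held 1 higher call each, and the other lists in that sentence none. The SYNE3 call was lost without replicate 1 or 2 of the controls or replicate 1 or 3 of the combined treatment (highest adjusted p = 0.0997). The ATG2B call was lost on leaving out any of 9 of the 12 libraries (highest adjusted p = 0.192).

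Whether the joint change equals the sum of the single changes was tested gene by gene as the departure from that sum on the log2 scale, where a departure of 0 means that the single fold changes multiply. No gene passed (0 of 15990, 0%). The smallest adjusted p in edgeR's quasi-likelihood test was 1, and 170 genes had an unadjusted p under 0.05, of which 10 were among the 1210 called in the joint change. If no gene departed, a share of about 0.05 of the 15990 genes would be under an unadjusted 0.05. The 170 seen are fewer, so the test without a replicate block was conservative here. With the block 0 genes passed as well, and 514 were under an unadjusted 0.05, also fewer than that share. DESeq2 and limma on log2 FPKM also called 0, with 64 and 230 genes under an unadjusted 0.05. Among genes called higher the median joint change was 0.27, beside a median of 0.03 for the siRNAs alone, 0.24 for 1-AKP alone and 0.27 for their sum. Among genes called lower the medians were -0.39 for the joint change, -0.04 for the siRNAs, -0.33 for 1-AKP and -0.38 for the sum. The joint and the single changes share the control libraries, so these medians lie side by side as a description. A p that misses the threshold does not show that the sum holds, and the intervals give its limits. Without the block, the median width of the 95% interval of the departure to either side was 0.2 among the 1210 genes, with quartiles of 0.16 and 0.28. The interval lay within 1 on the log2 scale either way for 1174 of them (97%) and within the size of the joint change itself for 971 (80.2%). It lay within 0.5 times the joint change for 91 (7.52%), so for most called genes a departure of that size cannot be told apart from none. The departures themselves had a median size of 0.04, and in 12 called genes they were over 0.5.

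**Figure D4:**
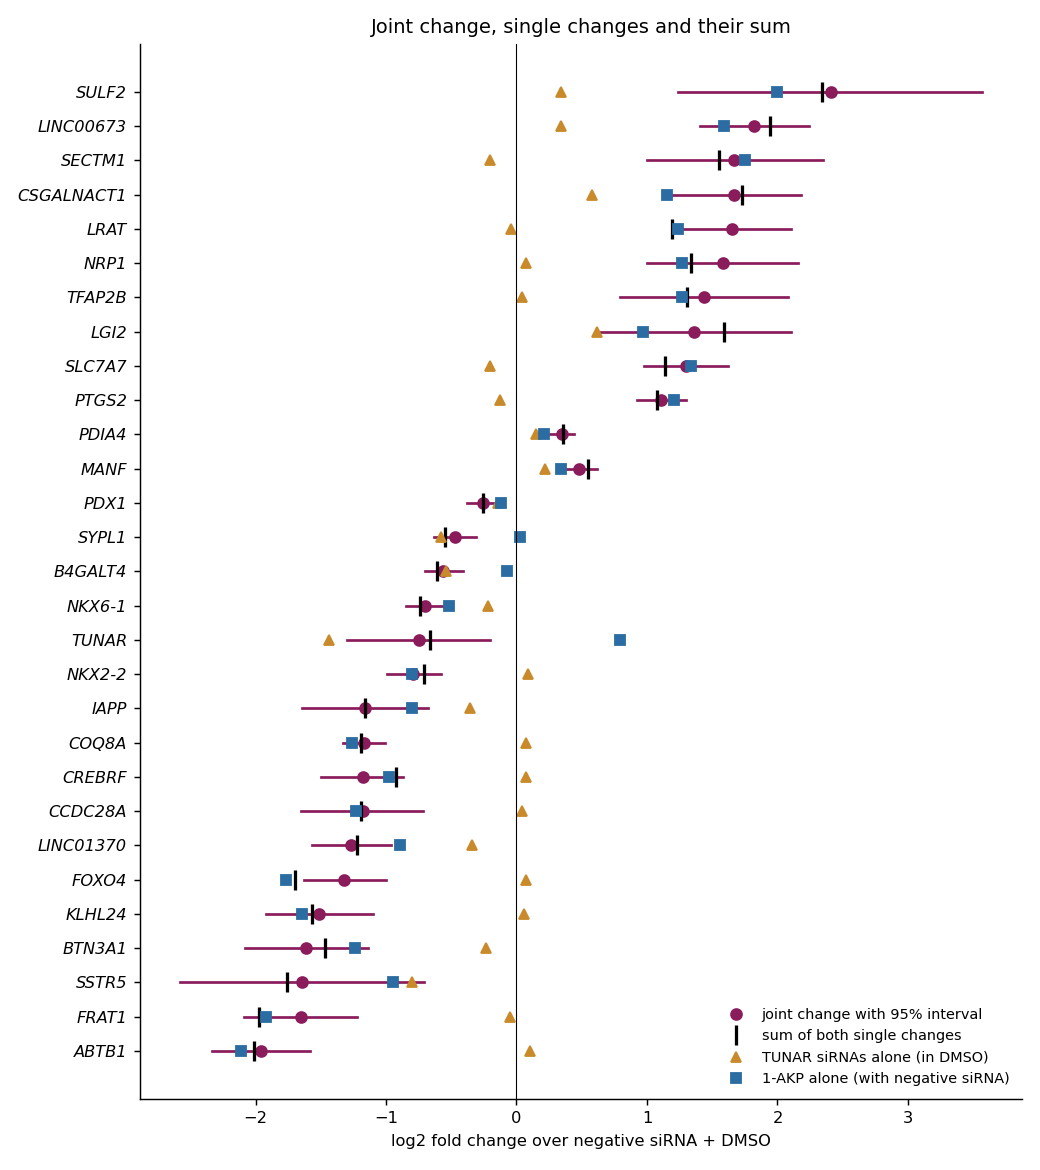
Joint log2 fold change with its 95% interval (circle and line), the change with TUNAR siRNAs alone (triangle), with 1-AKP alone (square) and the sum of both single changes (vertical tick), all over negative siRNA with DMSO, for 29 named genes. The sum falls inside the 95% interval of the joint change for 27 of the 29 genes, with LRAT and FOXO4 the exceptions. This interval leaves out the error of the sum, so a tick inside or outside it is no test of the departure. In the test of the departure no gene passed. The square lies closer to the joint change than the triangle for 25 genes, with PDX1, SYPL1, B4GALT4 and TUNAR the exceptions.

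By single changes, most of the 1210 genes stood with 1-AKP: in 779 the 1-AKP change was at least 0.2 and the siRNA change smaller than 0.2. In 51 genes it was the reverse, in 92 both reached 0.2 in the same direction, in 18 both reached it in opposite directions, and in 270 neither did. IAPP stood at -0.36 with the siRNAs (95% interval -0.83 to 0.11, edgeR adjusted p = 1) and -0.8 with 1-AKP (edgeR adjusted p = 0.0494), and the sum equals the joint -1.16. With a replicate block its siRNA change was also -0.36 and passed (edgeR adjusted p = 1.18e-06). Its departure was 0.01 with a 95% interval of -0.67 to 0.68. If fold changes multiply, 50 CPM would stand in the combined treatment, and if CPM differences add, 39.4 CPM, beside the 50.2 CPM measured. NKX6-1 stood at -0.22 and -0.52, with a departure of 0.04 (95% interval -0.18 to 0.26), and PDX1 at -0.14 and -0.12, with -0.01 (-0.18 to 0.16). The means of both were lower in the combined treatment than in either single treatment. Against the siRNAs alone edgeR called NKX6-1 (-0.48, adjusted p = 0.00254) and not PDX1 (-0.12, 0.208), and against 1-AKP alone it called neither, except with a replicate block (adjusted p = 0.019 for NKX6-1 and 0.00269 for PDX1). PCGF5 stood at -0.34 and -0.26 with a departure of 0.11 (-0.05 to 0.28), and MANF at 0.22 and 0.34 with -0.07 (-0.27 to 0.12). SSTR5, a somatostatin receptor, measured 3.28, 1.84 and 1.71 CPM in the combined treatment and 9.24, 6.91 and 5.2 CPM in controls. Its joint change of -1.64 (SE 0.426, edgeR adjusted p = 0.0393) stood beside -0.8 and -0.95, and the call was lost on leaving out any of 7 of the 12 libraries (highest adjusted p = 0.149). LGI2, a secreted leucine-rich protein, stood at 0.62 and 0.97 with a joint change of 1.36, and its call was also lost on leaving out any of 7 libraries (highest adjusted p = 0.119).

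In a few of the named genes the siRNA change was the larger one. SYPL1, a vesicle membrane protein, measured 76.3, 70.4 and 82.4 CPM in the combined treatment and 109, 107 and 100 CPM in controls (-0.47, SE 0.076, edgeR adjusted p = 0.00313). It stood at -0.58 with the siRNAs alone and 0.03 with 1-AKP alone. B4GALT4, a galactosyltransferase, measured 53.6, 56.6 and 56.4 CPM in the combined treatment and 84.8, 82.5 and 77.6 CPM in controls (-0.56, SE 0.065, edgeR adjusted p = 0.000394), with single changes of -0.54 and -0.07. Both lay near the level of the siRNAs alone. RYR2, a calcium release channel, measured 26.6, 31.1 and 36.2 CPM in the combined treatment and 17.1, 19.7 and 26 CPM in controls. The groups did not overlap, narrowly, and the change of 0.58 did not pass (SE 0.194, edgeR adjusted p = 0.101). With a replicate block the siRNA change of RYR2 passed, at 0.47 in DMSO and 0.51 in 1-AKP (edgeR adjusted p = 8.22e-05 and 2.18e-05). Its blocked 1-AKP changes did not pass, at 0.07 with negative siRNA and 0.11 with TUNAR siRNAs (0.561 and 0.237). The departures with the lowest unadjusted p, none of which passed, were those of GOLGA8T, LINC01733, ARHGEF17 and NPEPPSP1, at -3.92, 1.41, 1.97 and 0.6. GOLGA8T belongs to a family of near-identical copies and was at 0, 0.253 and 0 CPM in the combined treatment, and NPEPPSP1 is a pseudogene, so their reads are uncertain. The joint call of GOLGA8T (edgeR adjusted p = 0.0484) was lost on leaving out any of 11 of the 12 libraries, with a highest adjusted p of 0.153.

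Each single change was also measured in both states of the other factor, in comparisons that share no library. Over the 13767 genes averaging 1 or more in log2 CPM, the 1-AKP change with TUNAR siRNAs and the 1-AKP change with negative siRNA had a Pearson correlation of 0.796, with SDs of 0.217 and 0.215. The siRNA change in 1-AKP and the siRNA change in DMSO had a correlation of 0.431, with SDs of 0.13 and 0.128. These correlations run across genes, which are not independent replicates, and the libraries share cell line, passages and depth. The departure, which is the vertical distance from equality in either pair, had an SD of 0.138, about that of the siRNA change. In single comparisons 1-AKP changed 1201 genes (7.51%) with TUNAR siRNAs and 1168 (7.3%) with negative siRNA. The siRNAs changed 0 genes (0%) in 1-AKP, where 743 had an unadjusted p under 0.05, and 2 (0.0125%) in DMSO. The count for the siRNAs depends on the replicate block. Same-numbered libraries deviated together in both siRNA comparisons, with correlations of 0.416, 0.162 and 0.286 in 1-AKP and 0.376, 0.178 and 0.217 in DMSO, and with a replicate block edgeR called 443 genes in 1-AKP (231 higher, 212 lower) and 488 in DMSO (273 higher, 215 lower). The low counts without the block therefore do not show that the siRNAs changed few genes.

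**Figure D5:**
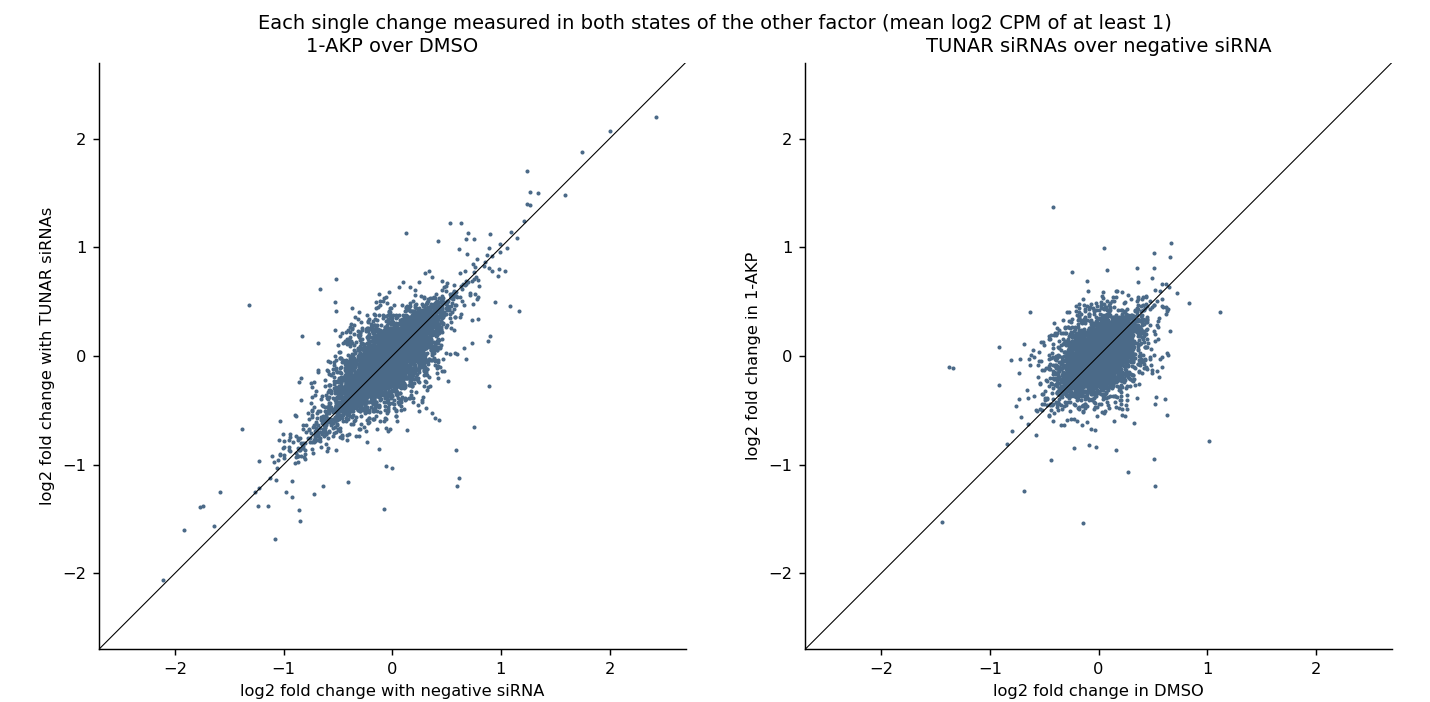
Left, log2 fold change of 1-AKP over DMSO with TUNAR siRNAs (vertical axis) and with negative siRNA (horizontal axis); right, log2 fold change of TUNAR over negative siRNA in 1-AKP (vertical axis) and in DMSO (horizontal axis), for 13767 genes. The line is equality. The 1-AKP changes spread along the line with a correlation of 0.796, and the siRNA changes form a rounder cloud with a correlation of 0.431.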

How the data were processed

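RNA-seq was measured in 12 EndoC-βH1 libraries, 3 in each of 4 groups taken from the sample titles. The authors deposited, for each library, expected counts per gene, with FPKM beside them. The submitters' processing notes name RSEM, Bowtie, BWA and the builds GRCh37 and hg19, with no versions or roles. A gene missing from a library's table was taken as 0. Of 21508 identifiers 21386 were matched to symbols by a gene name table, and genes without a descriptive symbol are counted but not named. Expected counts were rounded to whole numbers, since 35.3% to 36% of them were not whole.

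Low genes were removed with filterByExpr of edgeR (at least 10 counts in enough libraries, at least 15 in all), so that 15990 genes holding 99.9% of the counts were tested. All 12 libraries were fitted together, with TMM scaling (factors 0.99 to 1.014), 1 mean per group and edgeR 4.0.16's robust quasi-likelihood test in R 4.3.3, because 8 residual degrees of freedom then estimate the spread. The joint change is TUNAR siRNAs with 1-AKP over negative siRNA with DMSO. The departure is the joint change minus both single changes on the log2 scale. Adjusted p-values are Benjamini-Hochberg over all genes tested, at a threshold of 0.05. Standard errors were derived from the fold change and its F statistic. The joint and single changes share the control libraries. Alternatives were DESeq2 1.42.0, limma 3.58.1 on log2(FPKM + 0.1) and log2(FPKM + 1), other scalings and filters, a replicate block, passage as covariate and leaving out libraries. In both siRNA comparisons the replicate numbers pair the libraries by their deviations from the group means (every pair's correlation over 0.1). In the joint comparison this holds for replicates 1 and 3 (0.336 and 0.246) and not for replicate 2 (0.0634), so the main fit has no block. The fit was run on simulated counts with known changes. These had no effect of replicate number, so they cannot speak to the replicate differences seen here. No 2 libraries of a group agreed within counting noise.

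The genes and 35 gene lists were chosen with earlier results of these data known. The genes named are TUNAR and a short set of GSK3, Wnt, insulin and siRNA-responsive genes, the 10 higher and 10 lower called genes with the largest change at a mean log2 CPM of at least 1 without overlap between groups, up to 3 called members of each list by lowest p, and the 4 departures with the lowest unadjusted p. Other list members, the promoters shown and the letters TGTTTAC were chosen after their values were seen. Promoters are from RefSeq on GRCh38.p14, not the authors' build, and were matched by gene ID, not by position.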

Additional observations from a re-analysis of the deposited data

How the results depend on the processing

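The joint changes of TUNAR and of the 86 named called genes kept their direction under every alternative. The TUNAR departure, never called, and 12 of the 35 list medians changed sign under at least 1. The count of 1210 genes in the joint change was 514 with only the 6 libraries of the comparison, 86 within passage 74, and between 27 and 2626 on leaving out libraries, where single libraries gave 554 to 1263. Leaving out 1 replicate number with a block gave 2923 to 3873. Passage 75 holds 1 library per group and gives no value of its own. Other settings stayed within 1.5 times: DESeq2 called 1405 (711 higher, 694 lower), limma on log2(FPKM + 0.1) called 1081 (402 higher, 679 lower) and on log2(FPKM + 1) called 1089 (402 higher, 687 lower). Library size as the scaling shifted the median of all genes by -0.025.

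With a replicate block the joint count was 4484 (2320 higher, 2164 lower), of which 1209 were among the 1210, and 3635 with the block in the 6 libraries. In the joint comparison replicate numbers paired the libraries at over 0.1 for replicates 1 and 3 and not for replicate 2. The deviations of same-numbered libraries of both groups correlated at 0.336, 0.0634 and 0.246, and replicate 2 reached 0.092 with another number. In both siRNA comparisons every same-numbered pair was over 0.1, and the blocked counts stand beside them in the text. The 1-AKP counts with the block were 4335 with TUNAR siRNAs and 4285 with negative siRNA. The block on the single comparisons was chosen after seeing the data. TUNAR was called under the block (-0.75, edgeR adjusted p = 0.00707), under the block in 6 libraries (-0.75, 0.000192) and by DESeq2 (-0.74, 0.0314). Its joint change ran from -0.99 to -0.53 and its departure from -0.35 to 0.13 on leaving out libraries.

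The departure gave 0 genes in 26 of 29 alternatives, and 0 to 5 on leaving out libraries. The 4, 5 and 5 calls arose with a block and 1 replicate number left out. Named after their values were seen, they were SLX1B-SULT1A4, TGIF2-RAB5IF, CORO7-PAM16, INS-IGF2, COMMD3-BMI1, GOLGA8T, GOLGA8DP, GOLGA6L22, SERF1A, C4A (1.05, edgeR adjusted p = 0.0449), P2RY11 (-2.4, 0.000879) and 1 without a symbol. Without replicate number 1, the log2 departures reached 16.25 for SLX1B-SULT1A4 and -15.55 for CORO7-PAM16, and values of that size are not reliable as fold changes. Of the 86 named called genes, 54 stayed called without any 1 of the 12 libraries and 32 did not. The causes of these differences were not tested. Precision is limited by 3 libraries per group.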
